A study of Mus musculus with 12 samples.

Results

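The genes described here encode the enzymes of cholesterol and fatty acid synthesis together with the proteins that control them. They were listed by name as 28 genes, and each was read from its single-symbol probe set on the array, the one with the highest mean over the 12 arrays where a gene had several. Of the 28, 27 had such a probe set and all 27 were among the 14953 genes tested; Acat2, which makes acetoacetyl-CoA, had no single-symbol probe set named here. The sterol branch held 16 measured genes (Hmgcs1, Mvk, Pmvk, Mvd, Idi1, Fdps, Fdft1, Sqle, Lss, Cyp51, Tm7sf2, Nsdhl, Hsd17b7, Ebp, Dhcr7 and Stard4), the fatty acid branch 6 (Acly, Acaca, Fasn, Elovl6, Scd1 and Scd2) and the regulators 5 (Srebf1, Srebf2, Scap, Insig1 and Insig2).

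They were measured in cells labelled as neurons harvested on day 16 of differentiation. The starting cells were D3, a mouse embryonic stem cell line, and differentiation ran through aggregation into embryoid bodies without the self-renewal factor LIF. The groups were a D3 line with knockdown of PRMT1 (siPRMT1), a D3 line with knockdown of PRMT8 (siPRMT8), a D3 line that carried a scrambled, non-targeting sequence (siSCR) and D3 cells with no modification (D3). PRMT1 and PRMT8 are protein arginine methyltransferases. Each group had 3 samples called biological replicates, each on 1 array, and each modified group was 1 line, so a line's history and its knockdown cannot be told apart. Whether the 3 samples of a group were differentiated separately is not stated, and the p-values rest on the spread among these samples alone. Because whole cultures were measured, fewer cells of a type and less RNA per cell cannot be told apart.

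Cells make cholesterol from acetyl-CoA through mevalonate, isoprenoid diphosphates, squalene and lanosterol, and they make fatty acids from the same acetyl-CoA through malonyl-CoA. Both branches are transcribed under the SREBP factors: when sterols in the endoplasmic reticulum fall, the escort protein SCAP carries SREBP to the Golgi for cleavage, and when sterols are high the INSIG proteins hold it back. Neurons and glia synthesise their own cholesterol, because lipoprotein cholesterol of the blood does not cross the blood-brain barrier.

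Values were deposited as log2 values and are given on that scale, on which a difference of 1 is a doubling; levels of different genes come from different probe sets and were not compared with each other. No background level or detection call was used here. The knocked-down gene Prmt1 was at 7.72, 7.95 and 7.59 in siPRMT1, against 8.84, 8.74 and 8.87 in siSCR (difference -1.06, SE 0.09, limma adjusted p = 0.000115). Prmt8 was at 6.44, 6.17 and 6.44 in siPRMT8, against 6.60, 7.18 and 7.10 in siSCR (difference -0.61, SE 0.16, limma adjusted p = 0.0171), and this call was lost without siSCR replicate 2, siSCR replicate 3 or siPRMT8 replicate 2 (-0.54 to -0.50, adjusted p = 0.0599 to 0.0728). The other enzyme's gene also differed from both controls in siPRMT8, but from D3 only in siPRMT1. In siPRMT1, Prmt8 was at 6.35, 6.89 and 6.67, overlapping siPRMT8 and siSCR. It was lower than in D3 (difference -0.75, limma adjusted p = 0.00488), but the difference of -0.32 from siSCR did not pass (limma adjusted p = 0.177). Prmt8 in siSCR itself lay below D3 without overlap, by a difference of -0.43 that did not pass (limma adjusted p = 0.388). In siPRMT8, Prmt1 was higher than in siSCR by 0.43 and than in D3 by 0.49 (limma adjusted p = 0.00625 and 0.00232). On the first principal component, with 61.4% of the variance, siSCR replicate 1 lay at 0.105, between the 6 knockdown arrays (13.6 to 25.7) and the other 5 control arrays (-26.2 to -21.6). All 16 neuron markers examined passed the filter on dim genes, and so did all 10 pluripotency genes. Array means of the pluripotency list were 9.16 to 10.23 in siPRMT1 and 9.43 to 9.79 in siPRMT8. They were 9.82 to 10.065 in siSCR and 9.58 to 9.73 in D3. Against siSCR, 1 pluripotency gene passed as higher in siPRMT1, and 1 as higher and 1 as lower in siPRMT8. Without siPRMT1 replicate 2, 2 were higher in siPRMT1, and 1 was higher and 4 lower in siPRMT8. In siPRMT8 none was lower without any 1 D3 or siSCR array, siPRMT1 replicate 3 or siPRMT8 replicate 1 or 3. The array means of the neuron list were 8.01 to 8.22 in siPRMT1, 8.15 to 8.38 in siPRMT8, 8.29 to 9.36 in siSCR and 9.28 to 9.41 in D3, with 8.29 in siSCR replicate 1. Against siSCR, 12 of the 16 neuron markers passed as lower in siPRMT1 and 10 in siPRMT8, where 1 passed as higher, and 7 of 9 astrocyte markers passed as lower in both, with 1 higher, beside 11.6% of all genes lower in siPRMT1 and 13.2% in siPRMT8. Without siSCR replicate 1, 15 neuron markers passed as lower in each line, and in siPRMT8 only 5 or 6 did without siSCR replicate 2 or 3 or siPRMT8 replicate 1 or 3. Of 9 mesenchymal markers, 5 passed as lower in siPRMT1 and 6 in siPRMT8; the first count was 2 without siSCR replicate 2 or 3, and the second 3 without siPRMT8 replicate 3. Of 10 neural progenitor markers, 1 passed as higher and 3 as lower in siPRMT1, and 4 as higher and 2 as lower in siPRMT8, where 2 were higher without any 1 D3 or siSCR array or siPRMT8 replicate 1 or 3. In siPRMT1 none was higher without siSCR replicate 2, and 3 were higher and 2 lower without siPRMT1 replicate 1. Of 9 cell cycle genes, 3 passed as higher in siPRMT1 and 4 in siPRMT8, beside 7.18% and 10.7% of all genes higher; in siPRMT1 the count was 1 without siSCR replicate 3 and 7 without siPRMT1 replicate 2, and in siPRMT8 it was 2 without any 1 of the 3 D3 arrays, siSCR replicate 1 or 3 or any 1 siPRMT8 array. The part of these shifts in the results below was not tested.

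In the limma fit, at most 5 of the 27 sterol and fatty acid genes passed in any comparison, and those that passed differed by less than 1.5-fold. In siPRMT8 against siSCR 5 of the 27 passed an adjusted p of 0.05 (18.5%), beside 23.8% of all genes tested. The 4 that rose, Idi1, Nsdhl, Hsd17b7 and Ebp, all belong to the sterol branch, and the 1 that fell was Srebf2, which encodes the SREBP factor most tied to sterol genes. Among all genes tested, 10.7% rose and 13.2% fell there. In siPRMT1 against siSCR only Idi1 passed among the 27 (3.70%), beside 18.7% of all genes (7.18% higher and 11.6% lower). Both comparisons use the same 3 siSCR arrays. The count of 5 in siPRMT8 was 1 without siSCR replicate 3 or siPRMT8 replicate 3, 2 without siSCR replicate 2, and 3 without siPRMT1 replicate 3, siPRMT8 replicate 1 or 2 or any 1 D3 array. The count of 1 in siPRMT1 was 0 without D3 replicate 1, siSCR replicate 3 or siPRMT1 replicate 3 and 2 without siPRMT1 replicate 2.

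Against unmodified D3 cells, 3 of the 27 genes passed in siPRMT1 (11.1%), Mvk as higher and Hmgcs1 and Scd2 as lower, beside 26.4% of all genes (11.7% higher and 14.7% lower). In siPRMT8, 3 of 27 passed (11.1%), Idi1 and Ebp as higher and Srebf2 as lower, beside 27.7% of all genes (12.5% higher and 15.2% lower). Between siSCR and D3 none of the 27 passed in the limma fit (5 had an unadjusted p under 0.05), beside 0.154% of all genes (0.0602% higher and 0.0936% lower). Between siPRMT1 and siPRMT8 none passed either (2 had an unadjusted p under 0.05), beside 0.154% of all genes (0.0869% higher and 0.0669% lower). All shares of all genes given here and below are at the adjusted p. The share at an unadjusted p under 0.05 is not given, so the unadjusted counts have no such comparison. The count against D3 was 1 in siPRMT1 without D3 replicate 1 or 2 or siPRMT1 replicate 3, and 5 in siPRMT8 without siPRMT1 replicate 1. Each array was also centred on its median over the genes tested. Then 5 genes were higher and 0 lower in siPRMT8 against siSCR, and 5 and 0 in siPRMT8 against D3. In siPRMT1 against D3, 3 were then higher and 2 lower. The shares of all genes that passed after this centring are not given here. These counts therefore cannot be set beside all genes. The 12 calls, among 162 gene and comparison pairs, fell on 8 genes, and 19 genes passed in none of the 6 comparisons.

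**Figure D1:**
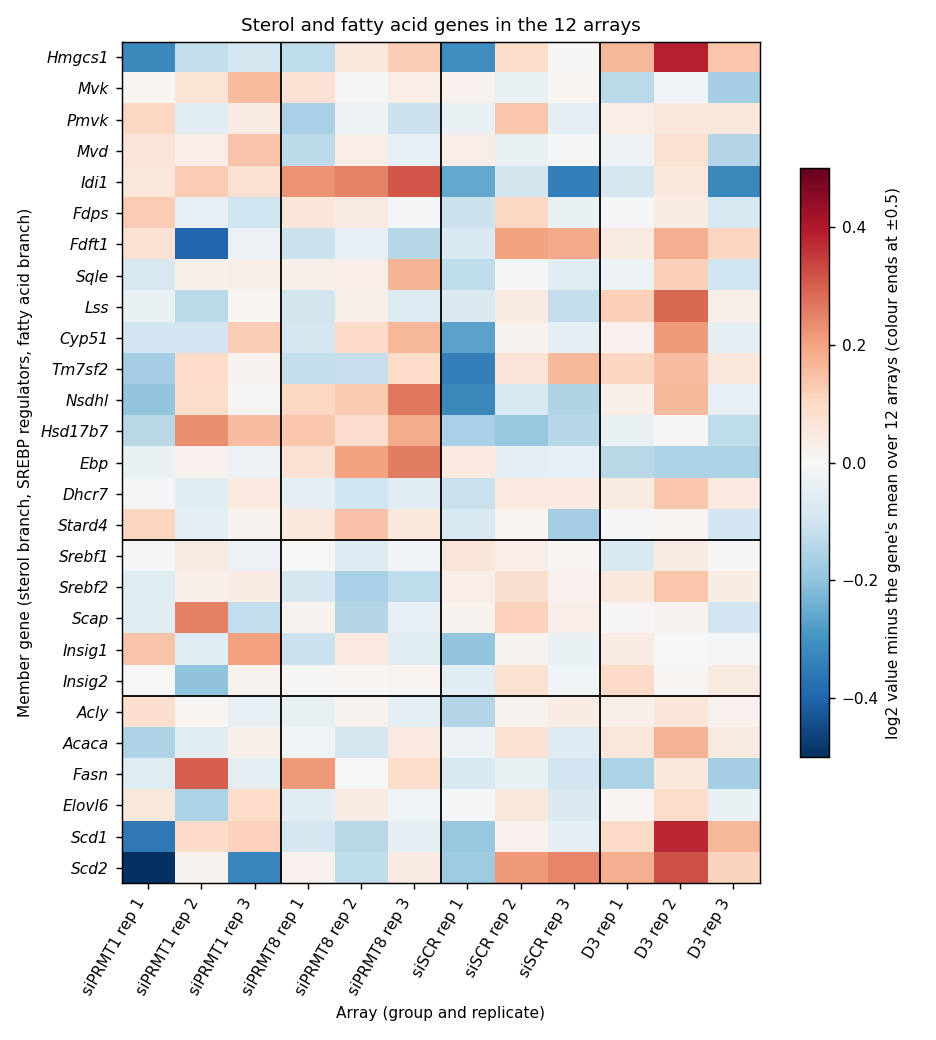
Heat map of the 27 measured genes (down, sterol branch, regulators, fatty acid branch) in the 12 arrays (across, by group and replicate). Colour gives the log2 value minus the gene's mean over the 12 arrays, with the scale ending at 0.5 on either side; Idi1 is above its mean in all 6 knockdown arrays, and D3 replicate 2 is the reddest D3 column.

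The differences from siSCR were mostly smaller than those of other genes. None of the 27 genes differed by 1.5-fold or more in any comparison, whereas 5.91% of all genes did in siPRMT1 against siSCR and 6.34% in siPRMT8 against siSCR. The median size of difference was 0.06 for the 27 genes and 0.14 for all genes in siPRMT1 against siSCR. For siPRMT8 and siSCR it was 0.09 for the 27 genes and 0.14 for all genes. For siPRMT8 and D3 it was 0.14 for the 27 genes and 0.15 for all genes. For siPRMT1 and D3 it was 0.11, beside 0.16 for all genes, and for siPRMT1 and siPRMT8 0.06, beside 0.08. Between siSCR and D3 the 27 genes had the slightly larger median, 0.08 beside 0.07 for all genes. The largest differences from siSCR were -0.37 for Scd2 in siPRMT1 and 0.49 for Idi1 in siPRMT8, and 8.94% of all genes moved further than Idi1. Over the 12 arrays each gene spanned 0.14 to 0.83, and 20 of the 27 spanned less than 0.5. Samples of the 2 groups did not overlap for 2 of the 27 genes in siPRMT1 against siSCR, beside 30% of all genes, and for 9 of the 27 in siPRMT8 against siSCR, beside 41.8%. Against D3 the groups did not overlap for 7 of the 27 genes in siPRMT1, beside 44.2% of all genes, for 13 in siPRMT8, beside 52.6%, and for 6 in siSCR, beside 20.3%. Between siPRMT1 and siPRMT8 they did not overlap for 4, beside 15.8%. Within groups the median SD was 0.09 in the sterol branch, 0.07 among the regulators and 0.11 in the fatty acid branch, beside 0.11 over all genes.

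**Figure D2:**
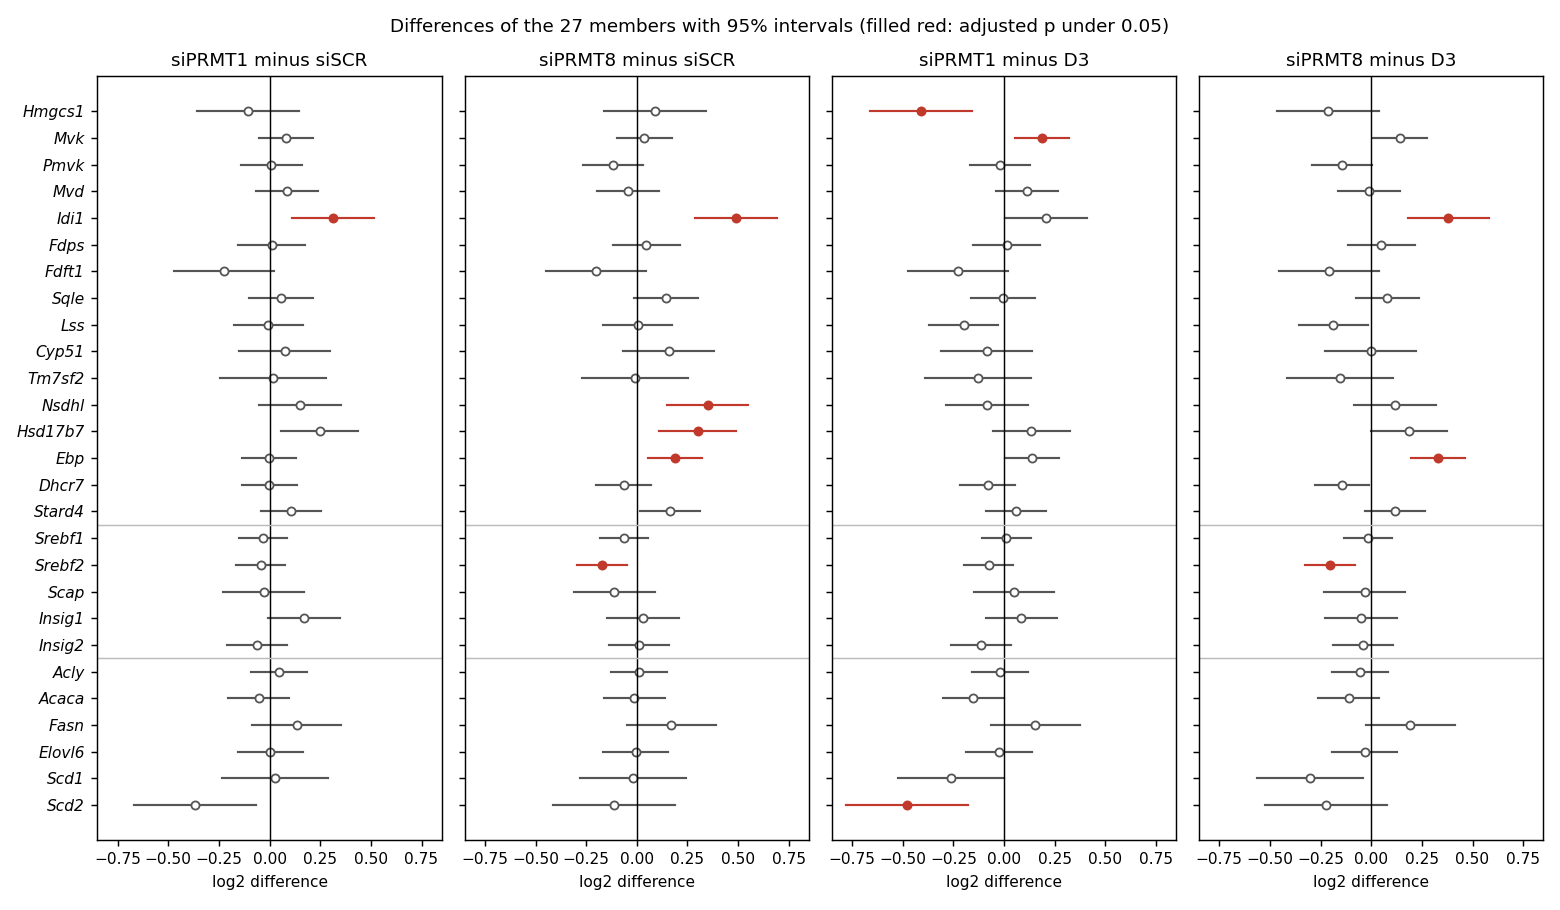
Differences in log2 value of the 27 genes, with 95% intervals, for siPRMT1 and siPRMT8 minus siSCR and minus D3. Filled red points passed an adjusted p of 0.05; the largest positive one is Idi1 in siPRMT8 minus siSCR, at 0.49, and the 1 called fatty acid gene is Scd2 in siPRMT1 minus D3, at -0.48.

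Promoter sequence is shown for 6 of these genes, the 5 called in siPRMT8 against siSCR and Hmgcs1. This was done because sterol-regulated promoters are known to pair an SREBP site with CCAAT and GC boxes. Hmgcs1 was called only in siPRMT1 against D3, and Mvk and Scd2, called there too, are not shown. Each sequence is the 250 bases before the RefSeq transcription start in GRCm38.p6, 5′ to 3′ on the gene's strand. Idi1 is at chr13:8885356-8885605 (plus strand), Nsdhl at chrX:72918271-72918520 (plus), Hsd17b7 at chr1:169969206-169969455 (minus), Ebp at chrX:8193513-8193762 (minus), Srebf2 at chr15:82147019-82147268 (plus) and Hmgcs1 at chr13:119690101-119690350 (plus). Capitals mark the sterol element TCACNCCA, the CCAAT box, the GC box GGGCGG and the E-box CACGTG, each searched on both strands, so that a CCAAT box on the other strand reads ATTGG and a GC box CCGCCC.
Idi1: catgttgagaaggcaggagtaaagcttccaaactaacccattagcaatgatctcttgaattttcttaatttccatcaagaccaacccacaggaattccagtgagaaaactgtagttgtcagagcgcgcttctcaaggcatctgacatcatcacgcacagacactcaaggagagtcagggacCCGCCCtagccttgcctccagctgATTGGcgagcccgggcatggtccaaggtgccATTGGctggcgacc
Nsdhl: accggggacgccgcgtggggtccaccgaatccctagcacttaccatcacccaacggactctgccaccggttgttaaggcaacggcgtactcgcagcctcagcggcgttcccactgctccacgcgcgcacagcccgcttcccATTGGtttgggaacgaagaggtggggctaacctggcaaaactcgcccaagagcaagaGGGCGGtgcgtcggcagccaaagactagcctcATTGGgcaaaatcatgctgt
Hsd17b7: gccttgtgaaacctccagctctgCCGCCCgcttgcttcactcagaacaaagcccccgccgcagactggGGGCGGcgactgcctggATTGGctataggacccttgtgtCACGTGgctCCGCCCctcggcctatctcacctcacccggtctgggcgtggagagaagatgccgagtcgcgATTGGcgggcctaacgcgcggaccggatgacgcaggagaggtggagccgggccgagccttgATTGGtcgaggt
Ebp: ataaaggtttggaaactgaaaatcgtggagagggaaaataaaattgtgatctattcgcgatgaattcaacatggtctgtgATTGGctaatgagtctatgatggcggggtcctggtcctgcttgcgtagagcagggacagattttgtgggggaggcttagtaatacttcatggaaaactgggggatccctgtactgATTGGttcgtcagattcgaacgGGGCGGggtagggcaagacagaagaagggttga
Srebf2: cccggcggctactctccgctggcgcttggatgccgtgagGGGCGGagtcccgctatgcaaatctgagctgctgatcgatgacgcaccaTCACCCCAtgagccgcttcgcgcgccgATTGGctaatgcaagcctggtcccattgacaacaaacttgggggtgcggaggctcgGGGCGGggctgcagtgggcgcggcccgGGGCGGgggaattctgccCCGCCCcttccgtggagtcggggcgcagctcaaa
Hmgcs1: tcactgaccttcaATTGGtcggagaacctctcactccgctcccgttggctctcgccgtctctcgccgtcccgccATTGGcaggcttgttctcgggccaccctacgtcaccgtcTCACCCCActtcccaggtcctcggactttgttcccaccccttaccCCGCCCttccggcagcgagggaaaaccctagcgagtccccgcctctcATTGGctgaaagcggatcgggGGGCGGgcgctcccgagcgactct

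The searched sterol element was in the windows of Srebf2 and Hmgcs1, starting 162 and 137 bases before the start site, and its letters did not occur in the windows of the 4 genes that rose in siPRMT8. All 6 windows held the CCAAT and GC box letters. The 4 genes that rose had 2 CCAAT boxes each in Idi1, Nsdhl and Ebp and 3 in Hsd17b7, all on the other strand, the nearest of them 14, 20, 55 and 12 bases before the start of Idi1, Nsdhl, Ebp and Hsd17b7. The E-box was in the Hsd17b7 window alone of the 6. Promoters were given for 21 of the 27 genes, in 29 windows. The sterol element was in 2 of those 29 windows and in 3.67% of the 32851 windows of all genes, the CCAAT box in 18 and 33.9%, the GC box in 20 and 32.7%, and the E-box in 4 and 6.02%. The 2 windows with the sterol element were those of Srebf2 and Hmgcs1 shown here, and other forms of the element were not searched. A match of letters is a description of the window and not a measured site.

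The mevalonate arm starts with Hmgcs1, the synthase that makes HMG-CoA, and ends with Idi1, the isomerase that turns isopentenyl diphosphate into dimethylallyl diphosphate. Idi1 changed most. Its values were 8.74, 8.81 and 8.76 in siPRMT1 and 8.91, 8.94 and 9.00 in siPRMT8, against 8.43, 8.60 and 8.35 in siSCR and 8.60, 8.74 and 8.36 in D3. All 6 knockdown arrays lay above all 6 control arrays, although siPRMT1 replicate 1 and D3 replicate 2 differed by less than 0.01. The difference of siPRMT8 from siSCR was 0.49 (SE 0.09, 1.40-fold, limma adjusted p = 0.00402), and it passed without any 1 of the 12 arrays (0.43 to 0.56). From D3 it was 0.38 (adjusted p = 0.0102 in limma), which also passed without any 1 array (0.28 to 0.47). A second Idi1 probe set gave 0.49 and 0.41 for these comparisons.

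The rise of Idi1 was smaller in siPRMT1, where the difference from siSCR was 0.31 (SE 0.09, 1.24-fold, limma adjusted p = 0.0348). This call was lost without D3 replicate 1, without siSCR replicate 1 or 3, or without any 1 of the 3 siPRMT1 arrays (0.26 to 0.33, adjusted p = 0.0517 to 0.137). Against D3 the siPRMT1 difference was 0.21 (95% interval 0.00 to 0.41, limma adjusted p = 0.120). The lines siPRMT1 and siPRMT8 did not overlap, but their difference of -0.18 (95% interval -0.38 to 0.03) did not pass, with a limma adjusted p of 0.476.

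Hmgcs1 was lower in siPRMT1 than in D3. Its values were 10.08, 10.28 and 10.31 in siPRMT1 and 10.28, 10.46 and 10.53 in siPRMT8, against 10.09, 10.49 and 10.41 in siSCR and 10.57, 10.79 and 10.54 in D3. The siPRMT1 values lay below all D3 values but among those of siSCR, whose replicate 1 was nearly as low as the lowest siPRMT1 array. The difference of siPRMT1 from D3 was -0.41 (SE 0.11, 1.33-fold, limma adjusted p = 0.0222), and the call was lost without D3 replicate 2 or without siPRMT1 replicate 1 (-0.34 to -0.33, adjusted p = 0.0708 to 0.0917). From siSCR it was -0.11 (95% interval -0.36 to 0.15). The scrambled line differed from D3 by -0.30 (95% interval -0.55 to -0.05), which did not pass (limma adjusted p = 0.424).

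Mvk, the kinase that phosphorylates mevalonate, was at 8.14, 8.19 and 8.28 in siPRMT1 and 8.20, 8.12 and 8.16 in siPRMT8, against 8.15, 8.09 and 8.13 in siSCR and 7.99, 8.10 and 7.95 in D3. It was higher in siPRMT1 than in D3 by 0.19 (SE 0.06, 1.14-fold, limma adjusted p = 0.0413), with no overlap between those groups. The call was lost without any 1 of 8 arrays, D3 replicates 1 and 3, siSCR replicates 2 and 3, siPRMT1 replicate 3 and the 3 siPRMT8 arrays (0.15 to 0.19, adjusted p = 0.0520 to 0.144). Pmvk and Mvd, which carry mevalonate phosphate on to isopentenyl diphosphate, passed in no comparison. Their differences from siSCR in siPRMT8 were -0.12 (95% interval -0.27 to 0.03) for Pmvk and -0.04 (-0.20 to 0.11) for Mvd.

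The enzymes from farnesyl diphosphate to lanosterol passed in no comparison. Fdps, the farnesyl diphosphate synthase, differed from siSCR by 0.01 in siPRMT1 (95% interval -0.15 to 0.17) and by 0.05 in siPRMT8 (-0.12 to 0.21). Fdft1, the squalene synthase, had the largest differences of the 4, -0.22 in siPRMT1 (95% interval -0.47 to 0.02) and -0.20 in siPRMT8 (-0.45 to 0.04), and its second probe set gave -0.19 and -0.18. With array weights Fdft1 passed as lower in siPRMT8, at -0.26 from siSCR and -0.19 from D3 (limma adjusted p = 0.0165 and 0.0289). In siPRMT1 it then passed as lower than in siSCR, at -0.20 (limma adjusted p = 0.0466). Sqle, the squalene epoxidase, was at 9.23, 9.24 and 9.37 in siPRMT8, against 9.08, 9.19 and 9.14 in siSCR. Those groups did not overlap, yet the difference of 0.14 (95% interval -0.01 to 0.30) did not pass, with a limma adjusted p of 0.171. Lss, the cyclase that forms lanosterol, was level with siSCR in both knockdown lines within 0.18 either way (95% intervals). From D3 it differed by -0.20 in siPRMT1, -0.19 in siPRMT8 and -0.19 in siSCR, and none of these 3 differences passed (limma adjusted p = 0.0797, 0.0941 and 0.458).

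Of the 4 sterol genes that rose in siPRMT8 against siSCR, 3 act after lanosterol. Nsdhl, a sterol dehydrogenase that takes part in removing methyl groups from the ring, was at 9.04, 9.33 and 9.25 in siPRMT1 and 9.34, 9.37 and 9.50 in siPRMT8, against 8.92, 9.16 and 9.09 in siSCR and 9.27, 9.40 and 9.20 in D3. All 3 siPRMT8 values lay above all siSCR values but overlapped those of D3. The difference of siPRMT8 from siSCR was 0.35 (SE 0.09, 1.27-fold, limma adjusted p = 0.0187), and the call was lost without siSCR replicate 3 or without siPRMT8 replicate 3 (0.30 to 0.37, adjusted p = 0.0502 to 0.0808). From D3 the difference was 0.12 (95% interval -0.08 to 0.32), and siSCR itself stood at -0.23 from D3 (-0.43 to -0.03), which did not pass.

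Hsd17b7, the keto reductase of the same demethylation, was at 7.70, 8.07 and 8.00 in siPRMT1 and 7.98, 7.92 and 8.03 in siPRMT8, against 7.68, 7.65 and 7.70 in siSCR and 7.81, 7.85 and 7.71 in D3. The 3 siPRMT8 values were above all 6 control values, and siPRMT1 replicate 1 alone of the knockdown arrays lay among the controls. The siPRMT8 difference from siSCR was 0.30 (SE 0.09, 1.23-fold, limma adjusted p = 0.0276), and the call was lost without siSCR replicate 2 or 3 or without siPRMT8 replicate 1 or 3 (0.27 to 0.31, adjusted p = 0.0686 to 0.0993). In siPRMT1 against siSCR it was 0.25 (95% interval 0.06 to 0.44), which did not pass (limma adjusted p = 0.0689) but did so without siPRMT1 replicate 1, at 0.36 (adjusted p = 0.00736). Without that array it also passed against D3, at 0.24 in siPRMT1 (adjusted p = 0.0219) and 0.19 in siPRMT8 (0.0349).

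Ebp, the isomerase that moves a double bond within the sterol ring, was at 7.88, 7.93 and 7.88 in siPRMT1 and 7.98, 8.12 and 8.17 in siPRMT8, against 7.96, 7.87 and 7.87 in siSCR and 7.78, 7.75 and 7.75 in D3. The siPRMT8 arrays were the 3 highest of the 12 and the D3 arrays the 3 lowest. From D3 the siPRMT8 difference was 0.33 (SE 0.06, 1.26-fold, limma adjusted p = 0.00253), and it passed without any 1 array (0.29 to 0.38). From siSCR it was 0.19 (SE 0.06, 1.14-fold, limma adjusted p = 0.0424). That call was lost without any 1 of 8 arrays, the 3 D3 arrays, siSCR replicates 2 and 3, siPRMT1 replicate 3 and siPRMT8 replicates 2 and 3 (0.15 to 0.19, adjusted p = 0.0572 to 0.159). Ebp in siPRMT1 differed from siSCR by 0.00 (95% interval -0.14 to 0.13) and from siPRMT8 by -0.19 (-0.32 to -0.06), and that from siPRMT8 did not pass over all genes (limma adjusted p = 0.253).

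**Figure D3:**
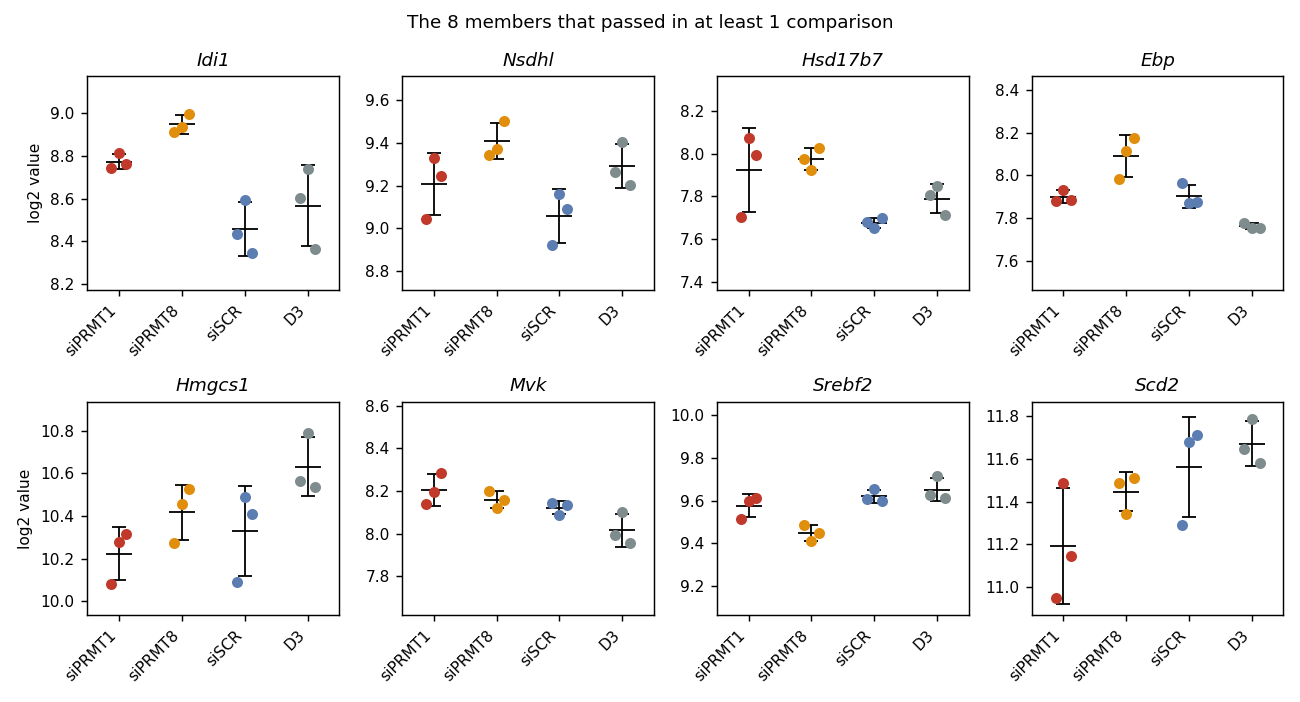
Log2 values of the 8 genes that passed in at least 1 comparison, by group; points are arrays, and the bars are the mean and SD of 3 arrays. Every panel spans 1 log2 unit; the siPRMT8 points of Idi1 and Ebp lie above all other groups, and those of Srebf2 lie below all others.

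The other late enzymes and the sterol carrier passed in no comparison. Cyp51, the lanosterol demethylase, differed from siSCR by 0.08 in siPRMT1 (95% interval -0.15 to 0.30) and by 0.16 in siPRMT8 (-0.07 to 0.38). Tm7sf2, a sterol reductase, differed by 0.02 in siPRMT1 (-0.25 to 0.28) and by -0.01 in siPRMT8 (-0.27 to 0.25), and its siSCR replicate 1, at 7.22, was the lowest of the 12 arrays. Dhcr7, the reductase of the last step, was at 8.48, 8.43 and 8.47 in siPRMT8, against 8.58, 8.66 and 8.58 in D3, with no overlap and a difference of -0.14 that did not pass (limma adjusted p = 0.106). Stard4, a soluble carrier of sterol between membranes, was at 8.31, 8.40 and 8.31 in siPRMT8, against 8.18, 8.27 and 8.08 in siSCR. These did not overlap, and the difference of 0.16 (95% interval 0.02 to 0.31) did not pass (limma adjusted p = 0.101), although it did after quantile normalization, at 0.19 (adjusted p = 0.0386), or median centring, at 0.22 (adjusted p = 0.0226).

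Among the 5 regulators only Srebf2 passed, and it was lower in siPRMT8. This is 20% of the 5, beside 13.2% of all genes lower against siSCR and 15.2% against D3. Srebf2 values were 9.52, 9.60 and 9.61 in siPRMT1 and 9.49, 9.41 and 9.45 in siPRMT8, against 9.61, 9.66 and 9.60 in siSCR and 9.63, 9.71 and 9.61 in D3. The siPRMT8 arrays were the 3 lowest of the 12. The differences of siPRMT8 were -0.17 from siSCR (SE 0.06, 1.13-fold, limma adjusted p = 0.0448) and -0.20 from D3 (SE 0.06, 1.15-fold, limma adjusted p = 0.0190). The call against siSCR was lost without any 1 array other than siPRMT1 replicate 1 or 2 (-0.19 to -0.15, adjusted p = 0.0548 to 0.138). The call against D3 was lost without D3 replicate 2, siPRMT8 replicate 2 or siPRMT8 replicate 3 (-0.20 to -0.17, adjusted p = 0.0547 to 0.0801). With each array centred on its median, the differences were -0.11 from siSCR and -0.13 from D3, and neither passed (adjusted p = 0.185 and 0.114).

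The remaining 4 regulators passed in no comparison. Srebf1, which encodes the SREBP form most tied to fatty acid genes, spanned 0.14 over the 12 arrays, the narrowest of the 27 genes. It differed from siSCR by -0.03 in siPRMT1 (95% interval -0.15 to 0.09) and by -0.06 in siPRMT8 (-0.18 to 0.06). Insig1, whose product holds SCAP in the endoplasmic reticulum and which is itself an SREBP target, was at 10.68, 10.48 and 10.74 in siPRMT1, against 10.34, 10.55 and 10.50 in siSCR. The groups overlapped through siPRMT1 replicate 2, and the difference of 0.17 (95% interval -0.01 to 0.35, limma adjusted p = 0.167) passed without that array, at 0.25 (adjusted p = 0.0369). In siPRMT8 Insig1 differed from siSCR by 0.03 (-0.15 to 0.21). Insig2 differed from siSCR by -0.06 in siPRMT1 (-0.21 to 0.09) and by 0.01 in siPRMT8 (-0.14 to 0.16), and Scap by -0.03 (-0.23 to 0.17) in siPRMT1 and -0.11 (-0.31 to 0.09) in siPRMT8.

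The fatty acid branch held 1 call among its 6 genes, Scd2, lower in siPRMT1 than in D3 (16.7% of the branch, beside 14.7% of all genes lower). Scd2, the stearoyl-CoA desaturase known as the main form in mouse brain, was at 10.95, 11.49 and 11.14 in siPRMT1 and 11.49, 11.34 and 11.51 in siPRMT8, against 11.29, 11.68 and 11.71 in siSCR and 11.65, 11.79 and 11.58 in D3. The siPRMT1 values lay below all D3 values, and siSCR replicate 1 lay among the knockdown arrays. The siPRMT1 difference from D3 was -0.48 (SE 0.14, 1.39-fold, limma adjusted p = 0.0249), and the call was lost without D3 replicate 1 or 2 or siPRMT1 replicate 1 or 3 (-0.49 to -0.36, adjusted p = 0.0616 to 0.0898). From siSCR the difference was -0.37 (95% interval -0.67 to -0.07), which did not pass (limma adjusted p = 0.0863). It passed without siSCR replicate 1, at -0.50 (adjusted p = 0.0160), and without siPRMT1 replicate 2, at -0.51 (adjusted p = 0.0152). In siPRMT8 Scd2 differed from siSCR by -0.11 (95% interval -0.42 to 0.19).

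Scd1, the related desaturase, was at 10.01, 9.96 and 10.05 in siPRMT8, against 9.91, 10.12 and 10.05 in siSCR and 10.19, 10.47 and 10.26 in D3. Its siPRMT8 values lay within the range of siSCR and below all D3 values. The difference from D3 was -0.30 (95% interval -0.56 to -0.04), which did not pass (limma adjusted p = 0.0822) but did so without siPRMT1 replicate 1 (adjusted p = 0.0182), an array of neither group that enters the shared estimate of the spread. The scrambled line stood nearly as far from D3, at -0.29 (-0.55 to -0.02), and did not pass.

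The steps before desaturation passed in no comparison. Acly, which makes cytosolic acetyl-CoA from citrate, differed from siSCR by 0.05 in siPRMT1 (95% interval -0.09 to 0.19) and by 0.01 in siPRMT8 (-0.13 to 0.15). Acaca, the carboxylase that forms malonyl-CoA, differed by -0.05 in siPRMT1 (-0.21 to 0.10) and by -0.01 in siPRMT8 (-0.16 to 0.14). Its second probe set gave -0.22 in siPRMT1 (limma adjusted p = 0.0583), so the 2 Acaca probe sets differed in size there. Fasn, the fatty acid synthase, was at 10.50, 10.29 and 10.37 in siPRMT8, against 10.21, 10.25 and 10.19 in siSCR, with no overlap and a difference of 0.17 (95% interval -0.05 to 0.39) that did not pass. Elovl6, which extends the product of Fasn, differed from siSCR by 0.00 in siPRMT1 (-0.16 to 0.16) and by -0.01 in siPRMT8 (-0.17 to 0.16).

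By branch, the median difference from siSCR in siPRMT1 was 0.04 in the sterol branch, 0.01 in the fatty acid branch and -0.03 among the regulators, beside 0.04 for all genes. For siPRMT8 and siSCR it was 0.07, -0.01 and -0.06 for the sterol branch, the fatty acid branch and the regulators, beside 0.01 for all genes. Against D3 the fatty acid branch had a median of -0.09 in siPRMT1, -0.08 in siPRMT8 and -0.08 in siSCR, with 5 of 6 genes below 0 in each. These 3 comparisons share the D3 arrays. The sterol branch against D3 had medians of -0.01 in siPRMT1, 0.02 in siPRMT8 and -0.07 in siSCR. The 4 of 16 sterol genes that passed in siPRMT8 against siSCR were all higher (25%, beside 10.7% of all genes higher), and none of the 6 fatty acid genes passed in the limma fit (none with an unadjusted p under 0.05). Without siSCR replicate 3, or without siPRMT8 replicate 3, that sterol count was 1, and it was 2 without siSCR replicate 2.

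The array means of both branches overlapped between groups, apart from siPRMT8 and D3 in the fatty acid branch. Sterol branch means were 8.61 to 8.68 in siPRMT1, 8.63 to 8.72 in siPRMT8, 8.51 to 8.65 in siSCR and 8.59 to 8.75 in D3, and fatty acid branch means were 10.14 to 10.33 in siPRMT1, 10.25 to 10.31 in siPRMT8, 10.19 to 10.35 in siSCR and 10.32 to 10.47 in D3. D3 replicate 2 was the highest of the 3 D3 arrays for 15 of 16 sterol genes and for all 6 fatty acid genes, but for 33.6% of all genes. D3 replicate 3 was the lowest for 12 of 16 sterol and 5 of 6 fatty acid genes, and for 34.9% of all genes. In siSCR, replicate 2 was the highest for 10 of 16 sterol genes (30.4% of all genes) and replicate 1 the lowest for 8 (32.2%). These counts describe 1 array each and carry no test.

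**Figure D4:**
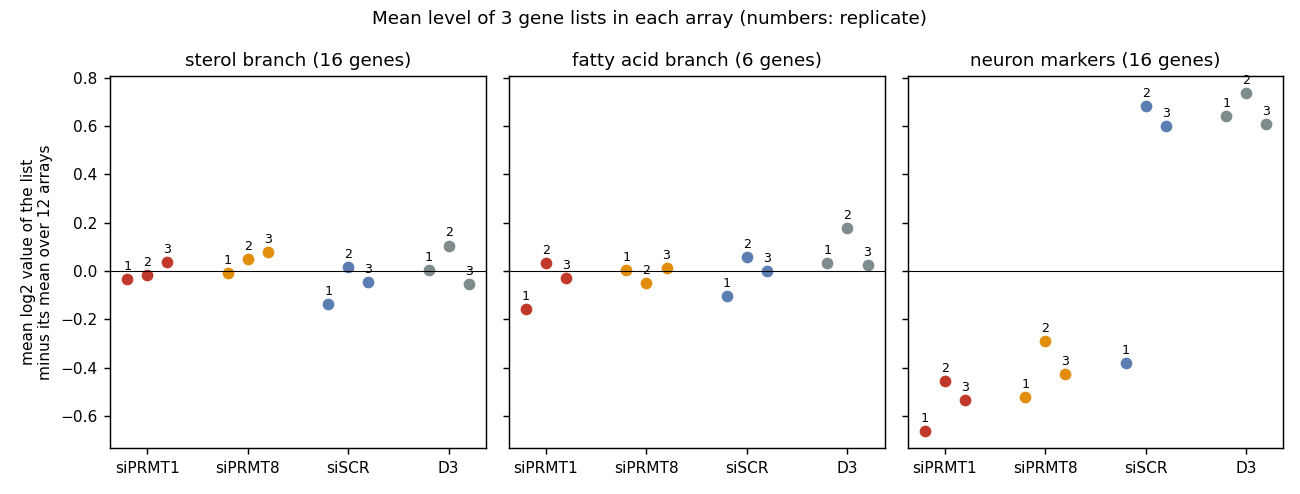
Mean log2 value of the sterol branch, the fatty acid branch and the neuron markers in each array, each minus its mean over the 12 arrays, by group; numbers give the replicate. The sterol branch means span 0.24 and the fatty acid branch means 0.34 in all, while the neuron means of the knockdown arrays and siSCR replicate 1 lie apart from the other 5 control arrays.

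Neighbouring pathway genes were listed without regard to their values, though earlier results of these data were known. Among 6 other sterol synthesis genes 1 rose and 1 fell in siPRMT8 against siSCR (16.7% each way, beside 10.7% of all genes higher and 13.2% lower) and none passed in siPRMT1 in the limma fit (1 had an unadjusted p under 0.05). Without siSCR replicate 1 or siPRMT1 replicate 1, 1 fell in siPRMT1, and without D3 replicate 2, siPRMT1 replicate 2 or siPRMT8 replicate 1, 2 rose in siPRMT8. Sc5d, the desaturase that acts after Ebp, was at 8.83, 8.83 and 8.97 in siPRMT8, against 8.51, 8.61 and 8.63 in siSCR and 8.70, 8.86 and 8.70 in D3. It rose over siSCR without overlap (difference 0.29, SE 0.07, limma adjusted p = 0.0106) but overlapped D3 (difference 0.13, 95% interval -0.02 to 0.27). The 1 that fell was Acat1, a mitochondrial thiolase and not a dedicated sterol enzyme. Its difference from siSCR in siPRMT8 was -0.41 (SE 0.13, limma adjusted p = 0.0444). The Sc5d call was lost without siPRMT8 replicate 3 (adjusted p = 0.0513), and the Acat1 call without any 1 of 9 arrays (adjusted p = 0.0554 to 0.148), all but siSCR replicate 1 and siPRMT1 replicates 1 and 2.

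Among genes of sterol uptake and trafficking, most of those that passed fell. Of 10 tested, 4 fell in siPRMT1 and 5 fell and 1 rose in siPRMT8 against siSCR, where 11.6% and 13.2% of all genes fell. Lrp1, an endocytic receptor for apolipoprotein E, was at 8.40, 8.29 and 8.16 in siPRMT1 and 8.42, 8.49 and 8.38 in siPRMT8, against 8.90, 9.18 and 9.08 in siSCR. Both lines lay below all siSCR arrays, by 0.77 and 0.62 (SE 0.08 each, limma adjusted p = 0.000387 and 0.000964), and both calls held without any 1 array. Lpin1, which the list also counts, is a phosphatidate phosphatase and not a sterol receptor or transporter. It was at 8.05, 7.45 and 7.97 in siPRMT1 and 7.36, 7.72 and 7.51 in siPRMT8, against 8.36, 8.42 and 8.22 in siSCR. It fell by 0.51 in siPRMT1 and by 0.80 in siPRMT8 (SE 0.14 each, limma adjusted p = 0.0264 and 0.00283), and the siPRMT1 call was lost without siSCR replicate 2 or 3 (adjusted p = 0.0543 to 0.0975). The 1 that rose was Tmem97, a membrane protein that binds the lysosomal sterol transporter NPC1, by 0.25 in siPRMT8 (SE 0.07, limma adjusted p = 0.0298), a call lost without siSCR replicate 2 or 3 or any 1 siPRMT8 array (adjusted p = 0.0520 to 0.0968). The count of falling genes in this list was 2 in siPRMT1 without siSCR replicate 2 or 3, and 3 in siPRMT8 without siSCR replicate 2, siPRMT8 replicate 1 or siPRMT8 replicate 3.

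Of 8 efflux genes and LXR targets, 1 fell in siPRMT1 (12.5%, close to the 11.6% of all genes lower) and 2 in siPRMT8 (25%, beside 13.2%). Abcg4, a neuronal sterol transporter, was at 6.94, 6.89 and 6.94 in siPRMT1 and 6.92, 6.89 and 7.01 in siPRMT8, against 7.18, 7.62 and 7.67 in siSCR. It fell by 0.56 and 0.55 (SE 0.12 each, limma adjusted p = 0.00823 and 0.00768), with no overlap. Abca1, the transporter that loads apolipoproteins with cholesterol, fell by 0.31 in siPRMT8 (SE 0.07, limma adjusted p = 0.0106). Without siPRMT1 replicate 2 the falling genes in this list were 2 in siPRMT1 and 4 in siPRMT8. Of 6 genes of SREBP processing and sterol-driven degradation, 2 fell in siPRMT1 (33.3%, beside 11.6% of all genes) and 1 in siPRMT8 (16.7%, beside 13.2%). Pgrmc1, a haem-binding membrane protein, fell by 0.29 in siPRMT1 and by 0.22 in siPRMT8 (SE 0.06 each, limma adjusted p = 0.00882 and 0.0235), and Erlin2, an endoplasmic reticulum protein of the degradation machinery, fell by 0.25 in siPRMT1 (SE 0.07, limma adjusted p = 0.0277). The Pgrmc1 call in siPRMT8 was lost without siSCR replicate 2 or 3 or any 1 siPRMT8 array (adjusted p = 0.0512 to 0.0937), and the Erlin2 call without siSCR replicate 1 or 2 or siPRMT1 replicate 3 (adjusted p = 0.0597 to 0.0923).

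Of 17 other fatty acid synthesis genes, 2 rose and 2 fell in siPRMT1, and 1 rose and 3 fell in siPRMT8. The 23.5% called in each line was near the 18.7% and 23.8% of all genes called in siPRMT1 and siPRMT8. Acsl4, which activates long polyunsaturated fatty acids, was at 9.15, 9.17 and 9.20 in siPRMT1 and 9.47, 9.14 and 9.47 in siPRMT8, against 8.90, 9.00 and 8.73 in siSCR. Both lines lay above all siSCR arrays, by 0.30 and 0.49 (SE 0.09 each, limma adjusted p = 0.0473 and 0.00463); the siPRMT1 call was lost without any 1 array other than siPRMT8 replicate 2 (adjusted p = 0.0525 to 0.181). Mlxipl, a glucose-responsive transcription factor of lipogenic genes, rose by 0.33 in siPRMT1 (SE 0.08, limma adjusted p = 0.0202), a call lost without siSCR replicate 2 or siPRMT1 replicate 1 (adjusted p = 0.0570 to 0.0796).

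Fads3, a desaturase-like protein, fell by 0.29 in siPRMT1 and by 0.22 in siPRMT8 (SE 0.07 each, limma adjusted p = 0.0173 and 0.0483). The first call was lost without siSCR replicate 2 or siPRMT1 replicate 3 (adjusted p = 0.0649 to 0.0800), and the second without any 1 array other than siSCR replicate 3 or siPRMT1 replicate 2 (adjusted p = 0.0550 to 0.174). Elovl4, an elongase of very long fatty acids, fell by 0.38 in siPRMT8 (SE 0.12, limma adjusted p = 0.0412), although siSCR replicate 1, at 8.27, lay among the siPRMT8 values of 8.19, 8.24 and 8.31. That call was lost without any 1 of 9 arrays, all but siSCR replicate 1 and siPRMT1 replicates 1 and 2 (adjusted p = 0.0541 to 0.156). In siPRMT1, none of the 17 genes passed without siSCR replicate 2, none fell without siPRMT1 replicate 3, none rose and 1 fell without siPRMT1 replicate 1, 1 rose and 1 fell without any 1 D3 array, and 1 rose without siSCR replicate 3, siPRMT1 replicate 2 or 3, or siPRMT8 replicate 1 or 3. In siPRMT8, 1 fell without siSCR replicate 2, siPRMT1 replicate 3 or any 1 D3 or siPRMT8 array.

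Of 9 genes of fatty acid oxidation, 1 fell in siPRMT1 (2 without siPRMT1 replicate 1) and 2 in siPRMT8. These are 11.1% and 22.2%, beside 11.6% and 13.2% of all genes lower. Cpt1a, the carnitine palmitoyltransferase that admits fatty acids to mitochondria, was at 8.31, 7.62 and 8.12 in siPRMT1 and 7.84, 8.08 and 7.69 in siPRMT8, against 8.78, 8.60 and 8.45 in siSCR and 8.30, 8.12 and 8.23 in D3. Both knockdown lines lay below siSCR, by 0.59 and 0.74 (SE 0.16 each, limma adjusted p = 0.0237 and 0.00758), but siPRMT1 overlapped D3. The Cpt1a difference of siPRMT8 from D3 was -0.34 and did not pass. The siSCR arrays lay above all D3 arrays, by a difference of 0.39 that did not pass either. The siPRMT1 call was lost without siSCR replicate 1 or 2 (adjusted p = 0.0531 to 0.0696). Cpt1c, the neuronal form, fell by 0.39 in siPRMT8 (SE 0.08, limma adjusted p = 0.00479).

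**Figure D5:**
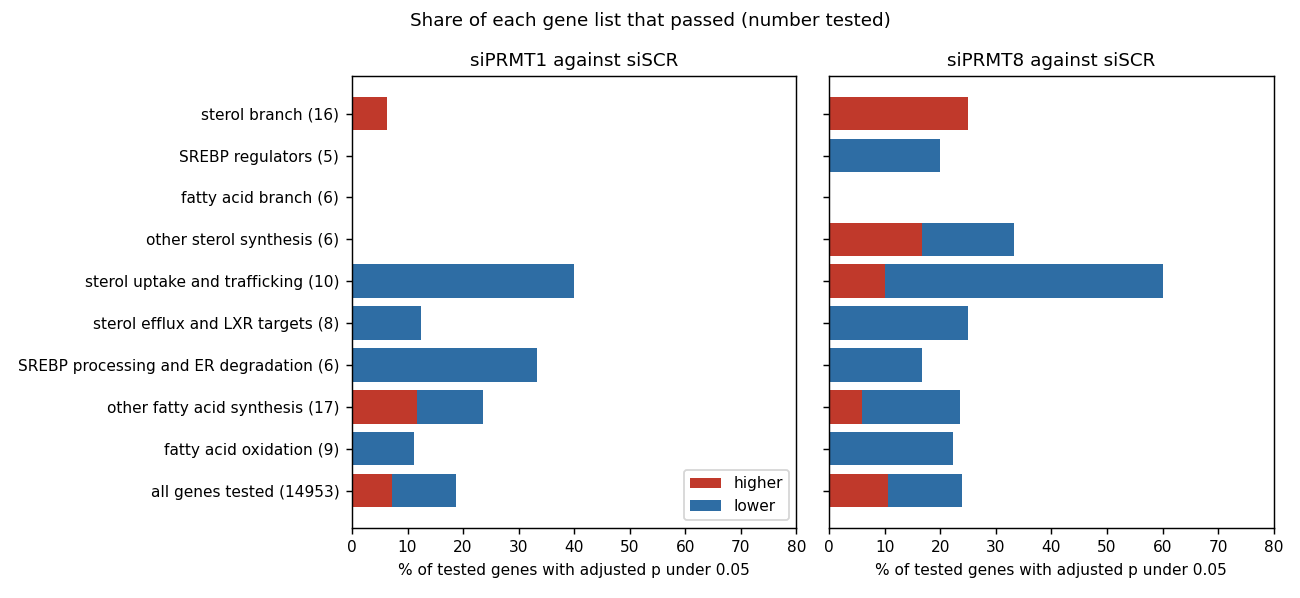
Percent of the tested genes of each list that passed an adjusted p of 0.05 in siPRMT1 and in siPRMT8 against siSCR, split into higher (red) and lower (blue); the number tested stands beside each name. The sterol branch bars are red only (1 and 4 of 16 genes), the uptake and trafficking bars mostly blue (4 lower in siPRMT1; 5 lower and 1 higher in siPRMT8), and the last row gives all 14953 genes.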

How the data were processed

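Whole-transcript, 1-colour arrays of 12 samples (4 groups of 3) were analysed from the deposited table, which held 1 log2 value for each of 35556 probe sets and array; how the authors corrected background and normalized is not given here, and the values themselves (0.97 to 13.54) showed the log2 scale. The array medians over all 35556 probe sets spanned 0.023, and values were used unscaled. Medians over the genes tested differed more between arrays. Centring on those moved the Srebf2 difference of siPRMT8 from D3 from -0.20 to -0.13. Of the probe sets, 21789 had 1 gene symbol in the platform annotation, 1621 several and 12146 none. Current symbols came from the RefSeq table of GRCm38.p6, matched on gene ID. The probe set with the highest mean stood for each of 19938 genes, and a filter removed the dimmest 25% (mean under 5.43), keeping 14953.

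Tests used limma 3.58.1 under R 4.3.3 (4 group means, 8 residual degrees of freedom, Benjamini-Hochberg over all genes tested, threshold 0.05), after a test of the script on simulated data. The number of arrays limits the precision. SE is limma's moderated standard error, and intervals are 95% and unadjusted. The members and gene lists were chosen with earlier results of these data known. Values in every sample are given for members that passed in at least 1 comparison, and from each neighbouring list up to 2 higher and 2 lower passing genes with the largest change against siSCR are named; Sqle, Dhcr7, Stard4, Insig1, Fasn and Scd1 were given per sample after their values were seen. Replicate numbers were checked for pairing: deviations of same-numbered arrays correlated above 0.1 in 8 of 18 pairs, and in all 3 only between siSCR and D3 (0.161, 0.194 and 0.107), so pairing was not shown for any comparison with a knockdown line. Promoter windows are from RefSeq.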

Additional observations from a re-analysis of the deposited data

How the results depend on the processing

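Among the 12 calls of the 27 genes, 221 of 282 values under the alternatives other than an added 1.5-fold threshold kept direction and call, and none reversed; Idi1 in siPRMT8 against siSCR and against D3, and Ebp in siPRMT8 against D3, passed under every alternative run other than a 1.5-fold threshold. With that threshold as well as the adjusted p, all 12 calls were lost and 0 of the 27 passed in siPRMT1 or siPRMT8 against siSCR or D3, since no difference was that large. When each array was left out in turn, the number passing was 0 to 2 in siPRMT1 against siSCR, 1 to 5 in siPRMT8 against siSCR, 1 to 3 in siPRMT1 against D3 and 2 to 5 in siPRMT8 against D3, and it was 0 to 0 in siSCR against D3 and in siPRMT1 against siPRMT8. Median centring gave 3 in siPRMT1 against siSCR and 5 in each knockdown against D3, of which all 5 in siPRMT8 were higher, in place of 2 higher and 1 lower. With no filter on dim genes 3 passed in siPRMT8 against siSCR. Fits of only the 2 groups gave 0 in siPRMT1 and 3 in siPRMT8 against siSCR and 7 in siPRMT8 against D3. Array weights gave 5 and 7 in siPRMT1 and siPRMT8 against siSCR, 6 and 10 against D3, and 3 in siPRMT1 against siPRMT8. With the mean of siSCR and D3 as the control, 2 passed in siPRMT1. Without both siSCR replicate 1 and siPRMT1 replicate 2, 4 passed in siPRMT1 against D3, 7 in siPRMT8 against D3 and 2 in siPRMT1 against siPRMT8. With the replicate number as a block, 3 passed in siPRMT8 against siSCR, in place of 5 (Ebp and Srebf2 were lost), Mvk was lost in siPRMT1 against D3 (0.19, adjusted p = 0.0714) and Scd1 was gained in siPRMT8 against D3 (-0.30, adjusted p = 0.0480); the other calls of the 27 genes did not change. The share of all genes that passed under each alternative is not given here. These counts therefore do not show whether the 27 genes shifted more than all genes. The cause of these shifts was not tested.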
